A study of Mus musculus with 6 samples.

Results

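The miR-181 family was examined in small RNA libraries of endothelial progenitor cells (EPCs), as 8 mature strands of 1915 mature miRNA names in the count table. The 8 were picked by name, with no measured value in that choice, although earlier results of these data were known when the family was chosen. A name listed at several hairpin precursors was represented by its row of highest total, which is a measured value. The 5p strands are mmu-miR-181a-5p, mmu-miR-181b-5p, mmu-miR-181c-5p and mmu-miR-181d-5p, where mmu stands for mouse. The 3p strands are mmu-miR-181a-1-3p, mmu-miR-181a-2-3p, mmu-miR-181b-1-3p and mmu-miR-181c-3p. In all, 10 names of the table contained miR-181, and the remaining strands, miR-181b-2-3p and miR-181d-3p, are given beside them. The study asked which miRNAs differ in EPCs after inhalation of fine particulate matter. The CAPs group held 3 libraries from mice exposed to concentrated ambient particles, and the Air group held 3 libraries from mice exposed to filtered air. All mice were young adult males of the C57BL/6 strain (C57BL/6J in the study's methods) without genetic modification, and the cells were cultured from their bone marrow, for 12 days according to the labels. The mice of a group shared 1 cage, so exposure and cage cannot be told apart.

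A miRNA is cut from a hairpin precursor as a duplex of a 5p and a 3p strand. Usually the guide strand is loaded into an Argonaute protein and kept, and the passenger strand is degraded. The seed, bases 2 to 8 of the mature strand, determines most of its targets. The miR-181 5p strands are the usual guides of this family. In mouse thymocytes miR-181a raises the sensitivity of T cell receptor signalling by repressing several phosphatases, and in mouse marrow it favours B cell development. In endothelial cells of mouse and human miR-181b dampens NF-kB signalling by repressing an importin that carries NF-kB into the nucleus.

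The mature sequences are shown because the 4 5p strands share 1 seed. All 4 averaged lower in CAPs libraries, as did miR-181c-3p, which has another seed. The sequences are from RefSeq on GRCm38.p6, written 5′ to 3′, with the seed in capitals.
miR-181a-5p: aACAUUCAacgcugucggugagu
miR-181b-5p: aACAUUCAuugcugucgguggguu
miR-181c-5p: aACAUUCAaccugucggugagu
miR-181d-5p: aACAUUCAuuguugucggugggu
miR-181a-1-3p: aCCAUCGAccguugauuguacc
miR-181a-2-3p: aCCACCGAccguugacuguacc
miR-181b-1-3p: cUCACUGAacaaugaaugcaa
miR-181b-2-3p: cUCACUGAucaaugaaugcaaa
miR-181c-3p: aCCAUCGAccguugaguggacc
miR-181d-3p: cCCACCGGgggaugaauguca

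The 4 5p strands carried the seed ACAUUCA, which no other mature name among 1679 in the RefSeq table shared. The 3p strands fell into several seeds. miR-181a-1-3p and miR-181c-3p shared CCAUCGA, and miR-181b-1-3p and miR-181b-2-3p shared UCACUGA. Positions are counted from 1 at the 5′ end, with the base of the first named strand written first. miR-181b-5p differed from miR-181d-5p by C12U and by its length of 24 against 23 bases. miR-181a-5p differed from miR-181b-5p by A9U, C10U and A21G and by 1 base of length, and it lay at an edit distance of 1 from miR-181c-5p. miR-181a-1-3p differed from miR-181a-2-3p by U5C and U16C, and miR-181b-1-3p from miR-181b-2-3p by A9U and 1 base of length. Strands this close can exchange reads in mapping, and how often that happened was not tested.

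The strands come from 6 precursors in 3 clusters. Mir181a-1 and Mir181b-1 lie on chromosome 1 (GRCm38, 137966455 to 137966718, plus strand) with 97 bases between them, in an intron of the noncoding gene Gm4258 on the same strand. Both overlap an exon of the lincRNA A430106G13Rik on the same strand and lie in an intron of the lincRNA Gm26936 on the opposite strand. Mir181a-2 and Mir181b-2 lie on chromosome 2 (38852735 to 38853918, plus strand) with 1019 bases between them, in an intron of the nuclear receptor gene Nr6a1, which is read from the opposite strand. Mir181c and Mir181d lie on chromosome 8 (84178716 to 84178961, minus strand) with 85 bases between them, in an intron of Nanos3 on the same strand. The copies on chromosomes 1 and 2 encode the same miR-181a-5p and the same miR-181b-5p, so counts of these 2 strands can hold reads of both clusters.

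Column totals ran from 19978586 to 25532775 counts in the CAPs libraries and from 21973143 to 23330772 counts in the Air libraries. Levels are given as CPM, counts relative to the library's total after scaling between libraries by the TMM method of edgeR. Taking 3 counts as the upper limit that a count of 0 allows, this limit was 0.166 to 0.222 CPM in the 6 libraries, for counting error only. In edgeR's quasi-likelihood test over 677 miRNAs, 0 reached 0.05 after Benjamini–Hochberg adjustment, and 142, or 21%, were under 0.05 before it. DESeq2, as run here, called 30 of 619 miRNAs at its adjusted p, or 4.85%, and the lower ones were 2.58%. None of them was a member. The study's own DESeq2 run reported more miRNAs. limma-voom called 0 miRNAs and edgeR's likelihood ratio test 14. CAPs replicate 1 stood apart by miR-122-5p, the main miRNA of hepatocytes, with 24731 CPM against 75.0 to 277 CPM in the other 5 libraries. The endothelial markers miR-126a-3p and miR-126a-5p summed to 947 to 3675 CPM in CAPs libraries and 1953 to 5120 CPM in Air libraries. The 4 myeloid markers, of miR-223 and miR-511, summed to 28249 to 32402 CPM in CAPs libraries and 25009 to 32342 CPM in Air libraries, above the endothelial sum in every library. The 5 stromal and smooth muscle markers summed to 41931, 39066 and 57201 CPM in CAPs replicates 1, 2 and 3, against 54206, 52802 and 65772 CPM in Air replicates 1, 2 and 3, lower on average in CAPs libraries but with overlap. Their part in the miR-181 levels was not tested. Fewer cells of a type and less RNA per cell cannot be told apart in such cultures.

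The 4 5p strands with the shared seed were each lower in all 3 CAPs libraries than in any Air library, by 0.29 to 0.51 on the log2 scale. None of the 8 members passed the adjusted p, as none of all miRNAs did. Among all 677 miRNAs tested, 14.3% were lower in CAPs libraries without overlap between the groups, and 29% were without overlap in either direction. Under upper-quartile scaling, which shifts the median of all miRNAs to 0.15 on the log2 scale, miR-181a-5p, the b strand and miR-181c-5p were still lower without overlap, among 6.94% of all miRNAs, but miR-181d-5p overlapped, as it also did with library totals alone. The 3p strands of miR-181a-1 and miR-181b-1, whose hairpins also encode miR-181a-5p and miR-181b-5p, were not lower, and their groups overlapped. Of 7 members tested, 5 were lower and 2 higher, with a median log2 fold change of −0.29, where 49.5% of all miRNAs tested were lower and their median was 0.00. Without CAPs replicate 1, the library high in miR-122-5p, the log2 fold changes were −0.49 for both miR-181a-5p and miR-181b-5p, −0.64 for miR-181c-5p and −0.39 for miR-181d-5p, each larger in size than with it, and none passed the adjusted p of edgeR.

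miR-181a-5p, the most abundant member, stood at 340, 300 and 312 CPM in CAPs replicates 1, 2 and 3, against 393, 406 and 444 CPM in Air replicates 1, 2 and 3. The highest CAPs library thus lay below the lowest Air library by more than the SD of either group. It averaged 317 ± 20.7 CPM in CAPs libraries and 414 ± 26.4 CPM in Air libraries (SD, n = 3 each). The log2 fold change was −0.38 with a standard error of 0.10 and a 95% interval from −0.63 to −0.14, an unadjusted p of 0.00709 and an adjusted p of 0.146 in edgeR's quasi-likelihood test, and 29 miRNAs had a smaller unadjusted p.

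miR-181b-5p, the strand tied to endothelial NF-kB signalling, stood at 147, 117 and 146 CPM in CAPs replicates 1, 2 and 3, against 183, 173 and 179 CPM in Air replicates 1, 2 and 3. The Air libraries lay close together, and CAPs replicate 2 lay apart from the other CAPs libraries on the low side. The log2 fold change was −0.39 with a standard error of 0.12 (95% interval −0.67 to −0.11, edgeR adjusted p = 0.161).

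miR-181c-5p and miR-181d-5p, processed from neighbouring hairpins on chromosome 8, were much scarcer. miR-181c-5p stood at 12.1, 11.5 and 9.77 CPM in CAPs replicates 1, 2 and 3, against 15.4, 17.5 and 14.8 CPM in Air replicates 1, 2 and 3, from 132 to 283 counts a library. Its log2 fold change was the largest in size among the 7 members tested, −0.51 with a standard error of 0.15 (95% interval −0.87 to −0.16, edgeR adjusted p = 0.157). miR-181d-5p stood at 17.3, 14.4 and 17.3 CPM in CAPs replicates 1, 2 and 3, against 22.9, 19.4 and 17.7 CPM in Air replicates 1, 2 and 3. Its groups were separated by little, since the highest CAPs library, at 17.32 CPM, lay next to the lowest Air library, at 17.65 CPM. Its log2 fold change was −0.29 with a standard error of 0.16 (95% interval −0.66 to 0.08, edgeR adjusted p = 0.319). At an unadjusted p under 0.05 in edgeR were 3 of the 7 members tested, all of them lower, namely the a, b and c strands of the 5p arm. Of all miRNAs, 9.45% were under that p and lower, and 11.5% under it and higher. Upper-quartile scaling ended these 3 unadjusted calls in edgeR, with p of 0.065 for the a strand, 0.099 for the b strand and 0.070 for the c strand, and left 25 of all miRNAs lower and 130 higher under that p, against 64 lower and 78 higher with TMM scaling.

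**Figure D1:**
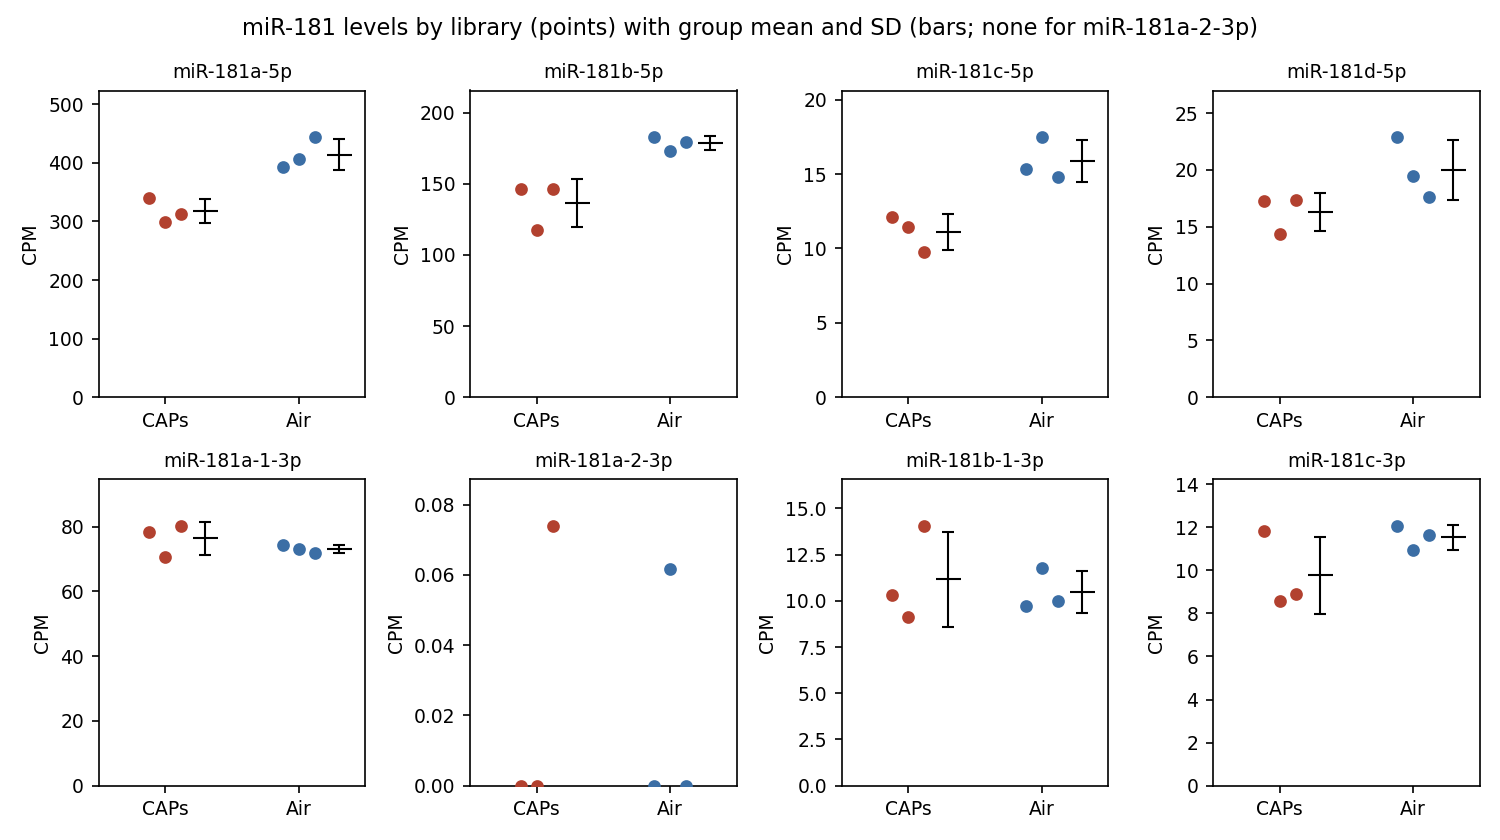
Level of each of the 8 members in CPM (vertical axes from 0, each with its own scale), with 1 point for each library, CAPs left and Air right, and bars for the group mean and SD (n = 3). The points of the groups do not overlap for the 5p strands in the upper row and overlap for the 3p strands in the lower row, and miR-181a-2-3p, at 0 or 1 count a library, has no bars.

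miR-181a-1-3p, the passenger strand of the chromosome 1 copy of miR-181a, stood at 78.3, 70.7 and 80.3 CPM in CAPs replicates 1, 2 and 3, against 74.3, 73.0 and 72.0 CPM in Air replicates 1, 2 and 3. The Air values all lay within the range of the CAPs values, but under upper-quartile scaling miR-181a-1-3p was higher in every CAPs library than in any Air library. The log2 fold change was 0.06 with a standard error of 0.10 (95% interval −0.17 to 0.30, edgeR adjusted p = 0.716). This interval did not reach the estimate for miR-181a-5p but overlapped that strand's own interval of −0.63 to −0.14. miR-181b-1-3p stood at 10.3, 9.14 and 14.1 CPM in CAPs replicates 1, 2 and 3, against 9.70, 11.8 and 9.98 CPM in Air replicates 1, 2 and 3. CAPs replicate 3 was the highest of all libraries and CAPs replicate 2 the lowest. Its log2 fold change of 0.09 had a standard error of 0.20 and a 95% interval of −0.39 to 0.56, which still held the estimate for miR-181b-5p (edgeR adjusted p = 0.828).

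miR-181c-3p stood at 11.8, 8.59 and 8.88 CPM in CAPs replicates 1, 2 and 3, against 12.1, 10.9 and 11.6 CPM in Air replicates 1, 2 and 3. CAPs replicate 1 lay among the Air libraries, and the others lay below them. The log2 fold change was −0.24 with a standard error of 0.17 (95% interval −0.65 to 0.17, edgeR adjusted p = 0.457), and it was −0.46 without CAPs replicate 1. The scarce strands miR-181b-2-3p, at 1.67 ± 0.29 CPM in CAPs libraries and 1.54 ± 0.32 CPM in Air libraries, and miR-181d-3p, at 0.66 ± 0.32 CPM in CAPs libraries and 0.52 ± 0.29 CPM in Air libraries (SD, n = 3), overlapped between the groups.

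**Figure D2:**
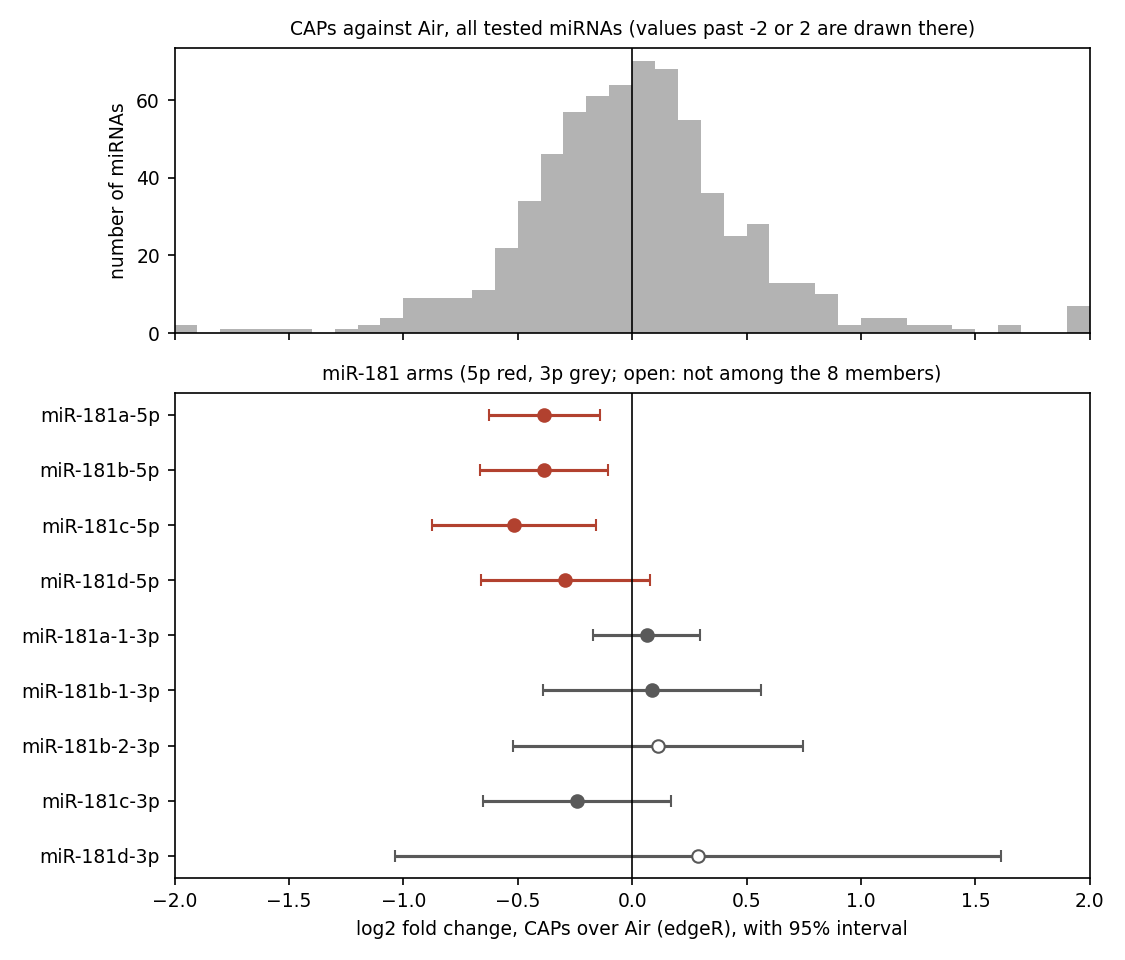
The upper panel counts all 677 tested miRNAs by log2 fold change of CAPs over Air from edgeR, and the lower panel gives the miR-181 strands on the same axis with 95% intervals (5p red, 3p grey, open circles for the strands beside the 8 members). Among the 5p strands the intervals of a, b and c lie below 0, and those of miR-181d-5p and of the 3p strands include 0.

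The ratio of 5p to 3p reads was compared within each library, since such a ratio does not depend on the scaling between libraries. For miR-181a, 5p reads were set against the sum of both 3p strands. The ratio was 4.34, 4.24 and 3.89 in CAPs replicates 1, 2 and 3, against 5.29, 5.55 and 6.16 in Air replicates 1, 2 and 3. Every CAPs library thus held fewer 5p reads per 3p read than any Air library, with log2 ratios of 2.05 ± 0.08 in CAPs libraries and 2.50 ± 0.11 in Air libraries (SD, n = 3) and a difference of −0.45. For miR-181b-5p over miR-181b-1-3p the ratio was 14.2, 12.8 and 10.4 in CAPs replicates 1, 2 and 3, against 18.8, 14.7 and 17.9 in Air replicates 1, 2 and 3, a log2 difference of −0.46 without overlap. The 5p row kept here is that of Mir181b-2, on chromosome 2, while miR-181b-1-3p comes from Mir181b-1, on chromosome 1. With the Mir181b-1 row, the smaller one and an alternative chosen after seeing the data, this difference was −0.42 and the groups overlapped. With the kept row over miR-181b-2-3p, the scarce 3p strand of its own hairpin, the difference was −0.51 without overlap. For the miR-181a ratio and for the kept row over miR-181b-1-3p, the exact two-sided permutation p was 0.1, the smallest that 3 against 3 libraries allow. Both were 0.35 after adjustment over the 7 ratios tested, so neither could pass.

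For miR-181c, whose strands come from 1 hairpin only, the 5p to 3p ratio was 1.02, 1.33 and 1.10 in CAPs replicates 1, 2 and 3, against 1.27, 1.60 and 1.27 in Air replicates 1, 2 and 3. The groups overlapped, with a log2 difference of −0.26 (exact permutation p = 0.3, adjusted p = 0.525). These 3 ratios were all lower on average in CAPs libraries, and 2 of them were without overlap, that of miR-181b not with the Mir181b-1 row. Over 229 pairs of 5p and 3p strands with both tested, 15.3% were lower in CAPs libraries without overlap and 23.1% higher, with a median log2 difference of 0.03, so such separation of the groups was common in this table.

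**Figure D3:**
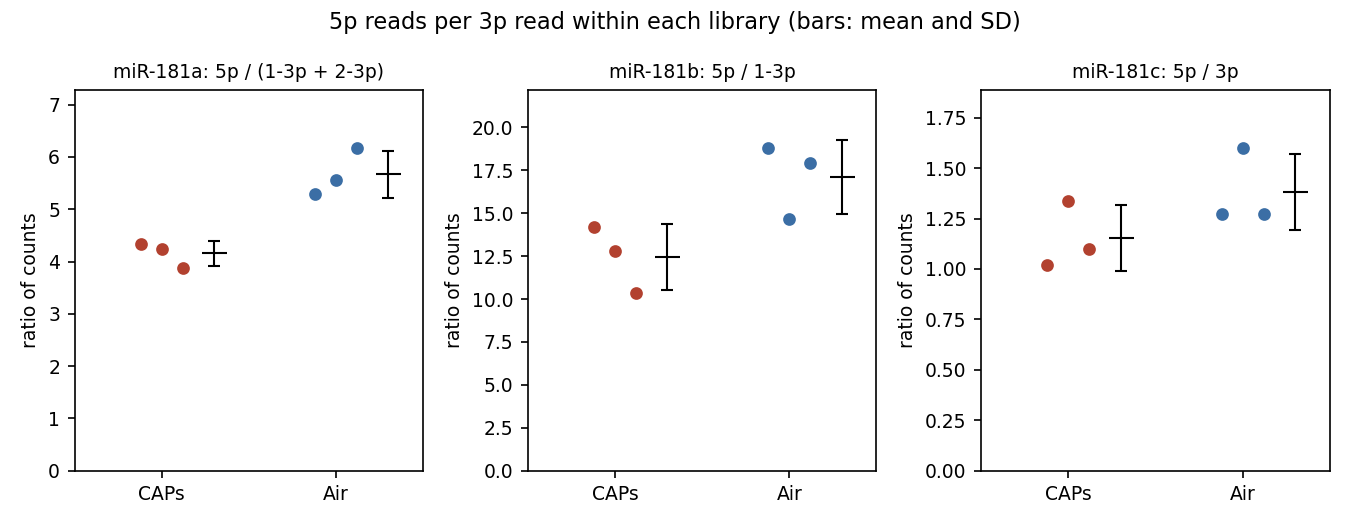
Number of 5p reads per 3p read in each library (vertical axes from 0) for miR-181a, miR-181b and miR-181c, CAPs left and Air right, with bars for the group mean and SD (n = 3). The CAPs points lie below all Air points for miR-181a, at 3.89 to 4.34 against 5.29 to 6.16, and for miR-181b, and overlap them for miR-181c. The miR-181b ratio sets the 5p row of Mir181b-2 over the 3p strand of Mir181b-1.

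The 4 strands that share the seed ACAUUCA summed to 516, 443 and 485 CPM in CAPs replicates 1, 2 and 3, against 614, 616 and 656 CPM in Air replicates 1, 2 and 3. The sum averaged 481 ± 36.8 CPM in CAPs libraries and 629 ± 23.6 CPM in Air libraries (SD, n = 3), a ratio of 0.766. The makeup of this sum was nearly the same in both groups. miR-181a-5p made up 66.0 ± 1.67% of it in CAPs libraries and 65.9 ± 1.83% in Air libraries, and miR-181b-5p made up 28.3 ± 1.81% in CAPs libraries and 28.4 ± 1.22% in Air libraries. miR-181c-5p held 2.31 ± 0.29% in CAPs libraries and 2.53 ± 0.29% in Air libraries, and miR-181d-5p held 3.39 ± 0.16% in CAPs libraries and 3.19 ± 0.52% in Air libraries (SD, n = 3).

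Ratios between 5p strands overlapped between the groups. The log2 ratio of miR-181b-5p to miR-181a-5p was −1.22 ± 0.13 in CAPs libraries and −1.21 ± 0.10 in Air libraries (SD, n = 3; exact permutation p = 1). That of miR-181c-5p to miR-181a-5p was −4.84 ± 0.15 in CAPs libraries and −4.70 ± 0.18 in Air libraries (exact permutation p = 0.4, adjusted p = 0.56, n = 3 each). Within the chromosome 8 cluster, the log2 ratio of miR-181d-5p to miR-181c-5p was 0.56 ± 0.25 in CAPs libraries and 0.33 ± 0.22 in Air libraries (exact permutation p = 0.3, adjusted p = 0.525, n = 3 each).

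**Figure D4:**
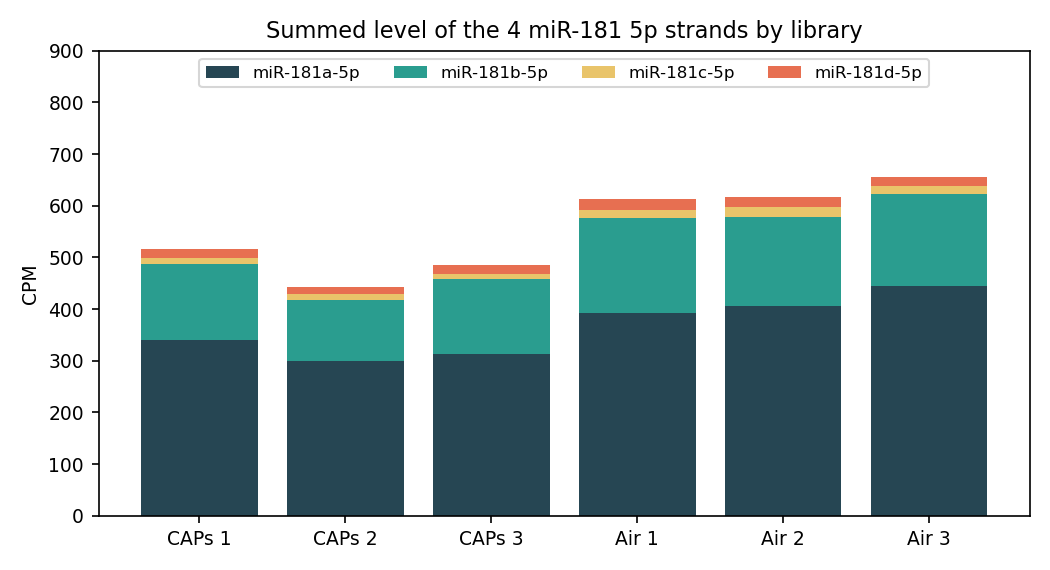
Summed level in CPM of the miR-181 5p strands in each library (vertical axis from 0), with colours for the 4 strands. The 3 CAPs bars, at 443 to 516 CPM, are shorter than the 3 Air bars, at 614 to 656 CPM, while the colours keep nearly the same shares.

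In the order of levels over all 6 libraries, miR-181a-5p came first, then miR-181b-5p, miR-181a-1-3p, miR-181d-5p and miR-181c-5p. The first 4 did not overlap in their ranges. miR-181d-5p was above miR-181c-5p in 6 of 6 libraries, with overlapping ranges. miR-181c-5p, miR-181b-1-3p and miR-181c-3p were close to each other, and miR-181b-1-3p was above miR-181c-3p in only 3 of 6 libraries. These orders compare strands of similar length, but ligation and amplification bias differs between miRNAs.

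The 3p strands differ between the copies on chromosomes 1 and 2, though by few bases, and exchange of reads between them was not tested. miR-181a-2-3p, of the chromosome 2 copy, had 1 count in CAPs replicate 3, 1 count in Air replicate 2 and 0 in the other 4 libraries. miR-181a-1-3p had 1085 to 1287 counts, and over all libraries miR-181a-2-3p made up 2 of 7146 counts of both strands, or 0.028% (exact Clopper-Pearson 95% interval 0.0034 to 0.101%). In the 4 libraries with 0 counts, miR-181a-1-3p was at least 363-fold higher, taking 3 counts as the limit in a library. For miR-181b the gap was smaller, and miR-181b-2-3p made up 16.1, 14.9 and 9.09% of the 3p counts in CAPs replicates 1, 2 and 3, against 15.2, 9.05 and 14.7% in Air replicates 1, 2 and 3. A low 3p count can come from a scarce precursor or from a 3p strand that is not kept, and these cannot be told apart here.

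The 5p counts were less informative about the copies. miR-181a-5p had nearly equal counts at both precursors, differing by at most 3 counts in any library. miR-181b-5p had 15061 counts in all at Mir181b-2 and 11912 at Mir181b-1, although both encode the same mature strand. The Mir181b-2 row exceeded the Mir181b-1 row by 15.5 to 24.6% of its own count in CAPs libraries and by 19.8 to 23.4% in Air libraries, so the groups overlapped. The 2 hairpins are printed because they part right at the end of this strand. The mature strands are in capitals (RefSeq, GRCm38.p6).
Mir181b-1: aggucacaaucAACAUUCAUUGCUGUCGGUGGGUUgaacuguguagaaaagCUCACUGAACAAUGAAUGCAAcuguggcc
Mir181b-2: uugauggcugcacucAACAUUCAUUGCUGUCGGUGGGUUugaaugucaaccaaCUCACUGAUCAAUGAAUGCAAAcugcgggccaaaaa

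The hairpins of miR-181b shared 0 bases after the 5p strand, and those of miR-181a shared 4. Whether longer reads account for the unequal miR-181b-5p rows was not tested. With the smaller row in place of the larger, miR-181b-5p had a log2 fold change of −0.34 and an adjusted p of 0.167 by edgeR.

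The miRNAs outside the family whose levels followed miR-181a-5p most closely over the 6 libraries were miR-3100-5p, miR-467c-3p, miR-26a-5p, miR-34b-5p and miR-500-3p, with Pearson r of log2 CPM from 0.961 to 0.972 as a description over libraries that share the difference between the groups. The first of these, miR-3100-5p, was scarce, at 0.39 to 0.99 CPM over the 6 libraries. All 5 were lower in CAPs libraries without overlap, as any miRNA with such an r would tend to be. miR-26a-5p, the most abundant of them, stood at 7821 ± 741 CPM in CAPs libraries and 10690 ± 1477 CPM in Air libraries (SD, n = 3) and ranked the libraries exactly as miR-181a-5p did. An r above 0.9 was found for 31 of 668 other miRNAs. Within the family, miR-181b-5p had an r of 0.907 with miR-181a-5p, miR-181c-5p 0.855, the 3p strand miR-181c-3p 0.778, miR-181d-5p 0.626, miR-181b-1-3p −0.16 and miR-181a-1-3p, from one of its own hairpins, −0.35.

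Of 6 other miRNAs of lymphoid and haematopoietic cells 5 were tested, 1 was lower and 4 were higher, 0 passed the adjusted p of edgeR, and their median log2 fold change was 0.12 against 0.00 over all miRNAs. The defining lymphoid miRNA miR-150-5p was scarce, at 17.8, 10.4 and 8.51 CPM in CAPs replicates 1, 2 and 3, against 11.9, 16.3 and 15.4 CPM in Air replicates 1, 2 and 3. The groups overlapped, with CAPs replicate 1 highest of all (log2 fold change −0.24, standard error 0.29, edgeR adjusted p = 0.633). miR-150-3p was too scarce to be tested. The pan-haematopoietic miR-142a-3p, at 29388 ± 4590 CPM in CAPs libraries and 25756 ± 2391 CPM in Air libraries, and myeloid miR-223-3p, at 30589 ± 2277 CPM in CAPs libraries and 28213 ± 3638 CPM in Air libraries (SD, n = 3), were abundant in both groups and overlapped. The part of cell makeup in the miR-181 levels was not tested.

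Of 8 miRNAs tied to NF-kB signalling in endothelium or leukocytes, 4 were lower and 4 higher, 0 passed that p, and their median log2 fold change was 0.00. miR-155-5p, which is also in the haematopoietic list and which NF-kB induces in activated macrophages, stood at 834, 1126 and 812 CPM in CAPs replicates 1, 2 and 3, against 684, 656 and 603 CPM in Air replicates 1, 2 and 3. It was the only one of them without overlap, in the direction opposite to miR-181b-5p (log2 fold change 0.51, standard error 0.15, edgeR adjusted p = 0.157), among 14.6% of all miRNAs that were higher without overlap. miR-146a-5p, a feedback inhibitor of NF-kB signalling, stood at 952 ± 82.5 CPM in CAPs libraries and 775 ± 272 CPM in Air libraries (SD, n = 3), with overlap. Endothelial miR-126a-3p varied more than any miR-181 5p strand, at 2760, 749 and 1520 CPM in CAPs replicates 1, 2 and 3, against 2116, 1516 and 4005 CPM in Air replicates 1, 2 and 3.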

How the data were processed

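The authors made small RNA libraries with the QIAseq miRNA system, read them on an Illumina NextSeq 500 and, according to the study's methods, used Trimmomatic for adapters and mirDeep2 with bowtie for mapping to mm10 and quantification against miRBase. bcl2fastq 20.0.422 is named in the submitters' processing notes. What the authors deposited are raw read counts for each mature and precursor pair, and a read that matches several precursors is counted at each. Collapsing by molecular identifiers was not given in the sources used here, so limits and intervals from counts cover counting error only. The study's methods give another culture time than the 12 days of the labels.

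Of 2061 rows, 1 row per mature name was kept, the one with the highest total, which left 13831209 to 18107578 counts per library. The main test was the quasi-likelihood F test of edgeR 4.0.16 (R 4.3.3) on these counts, with TMM scaling, the package's default expression filter and the group as the only term. P-values were adjusted by Benjamini–Hochberg over the 677 miRNAs that passed the filter, which dropped 1238 names, miR-181a-2-3p included. Standard errors came from the F statistic. DESeq2, the tool the study used, was an alternative, run here in version 1.42.0 on 1 row per name. It did not repeat the study's own run, which reported more miRNAs at that threshold. Other alternatives were limma 3.58.1, other scalings, filters and row choices, a replicate block and leaving out each library. Ratios within a library used 0.5 added counts and exact two-sided permutation tests (scipy 1.17.1). Correlations used log2 CPM with a prior count of 2. Scripts were tested on simulated data. Chi-square between replicates, for each degree of freedom, was 79.3 to 191 within Air and 549 to 1069 within CAPs, far above sampling noise. The CAPs libraries thus differed more among themselves than the Air libraries did. Every library in the deposited counts was kept. The submitters' library numbers have gaps, and the study's methods do not say what the missing numbers stood for. The edgeR p-values rest on a spread estimated for both groups together and moderated over all miRNAs. The wider spread of the CAPs libraries was not modelled apart, and the estimate covers only these 3 libraries of a group.

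The named miRNAs were the 8 members, other names with miR-181 or with a member's seed, the 5 miRNAs most correlated with miR-181a-5p, 2 lists, and cell type markers. Sums are given for the endothelial, myeloid and stromal marker lists only. Members and lists were chosen with earlier results of these data known. Sequences are from RefSeq and matched all 10 miR-181 names by name. Host genes are from GENCODE M21, and both use GRCm38, the assembly that mm10 denotes.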

Additional observations from a re-analysis of the deposited data

How the results depend on the processing

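No member passed an adjusted p of 0.05 under any of the 18 alternatives, and the 5 lower members kept their direction in all of them. Leaving out 1 library at a time moved the log2 fold change of miR-181a-5p between −0.49 and −0.34, miR-181b-5p between −0.49 and −0.30, miR-181c-5p between −0.64 and −0.45, miR-181d-5p between −0.39 and −0.21 and miR-181c-3p between −0.46 and −0.17. miR-181a-1-3p lay between −0.0077 and 0.10 and turned negative without CAPs replicate 1, and miR-181b-1-3p lay between −0.13 and 0.20 and turned negative without CAPs replicate 3. miR-181b-2-3p lay between −0.089 and 0.20 and was −0.076 without Air replicate 2, and miR-181d-3p lay between −0.17 and 0.58 and was −0.089 without Air replicate 3. Upper-quartile scaling moved the median of all miRNAs to 0.15 and miR-181a-5p to −0.23, or −0.39 relative to that median, and its counts of all miRNAs under an unadjusted p of 0.05 were 25 lower and 130 higher. The lowest adjusted p of a member was 0.0661, for miR-181a-5p with DESeq2. The count of miRNAs called was 13 with no filter, 30 with DESeq2 and 14 with edgeR's likelihood ratio test, and the cause was not tested.

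The difference in the log2 ratio of miR-181b-5p to miR-181a-5p was 0.011 with rows summed, 0.035 with the smaller row, and −0.071 to 0.057 with 1 library left out. That of miR-181a-1-3p to miR-181a-2-3p was 0.01 with 0.5 added counts and −0.52 to 0.61 with 1 library left out. The second ratio has no value without added counts. The other 5 ratios kept their direction. miR-181a-2-3p was left out by the filter and has no alternatives.

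Deviations from the group mean were compared by the replicate numbers of the sample titles. Same-numbered libraries had r of 0.02, −0.02 and 0.14 for numbers 1, 2 and 3. Differently numbered libraries had r from −0.26 to 0.23. The submitters' library names number them otherwise, and by those only CAPs replicate 2 and Air replicate 3 match, with r of −0.19. With 3 libraries a group this cannot exclude a pairing, and the main test used none. With a replicate block by title number, edgeR called 0 miRNAs and gave miR-181a-5p −0.38 with an adjusted p of 0.16. With 132 to 283 counts a library, counting error limits miR-181c-5p.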
